A study of Mus musculus with 6 samples.

Results

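The kinesin, dynein and dynactin genes were examined in pre-B cells, bone marrow B-cell progenitors at the stage of light chain rearrangement. A probe set was taken as a member if the array annotation gave it exactly 1 symbol and that symbol was of a kinesin heavy chain (Kif or Kifc), a kinesin light chain (Klc), a cytoplasmic dynein chain (Dync, Dynl) or a dynactin subunit (Dctn). This gave 60 genes of the 17372 with 1 symbol, each read from its brightest probe set. They were divided into 12 mitotic kinesins and 48 transport and other motor genes. Pre-B cells (B220+IgM-CD43-) had been sorted from bone marrow of 9-month-old mice and hybridised to Affymetrix arrays, with 3 arrays from control mice and 3 from Vav-Cre Mef2c fl/fl mice, called Mef2c-deficient. Vav-Cre deletes floxed alleles in blood-forming cells in general, so the deletion was not limited to B cells. The methods of the study name age-matched controls of 3 genotypes, namely Mef2c fl/fl without Cre, Mef2c fl/+ without Cre, and Mef2c fl/+ with Vav-Cre, so a control could carry 1 deleted allele. Which of these 3 genotypes each control array had is not given in the sources used here, nor whether an array held the cells of 1 animal or several. The p-values therefore measure only the spread between these arrays, which are few.

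Kinesins and dynein are enzymes that burn ATP to walk along microtubules. Most kinesins move towards the fast-growing plus end and carry vesicles, organelles or protein complexes outwards, whereas cytoplasmic dynein, with its cofactor dynactin, moves towards the minus end. A separate set of kinesins builds the mitotic spindle, moves chromosomes and completes cytokinesis. Genes of this set are typically transcribed late in the cell cycle, and many carry a short promoter element named the cell cycle genes homology region, or CHR. Large pre-B cells divide before small pre-B cells leave the cycle and rearrange their light chains. How much of each kind fell in the sort gate is not given in the sources used here.

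The promoters of the mitotic kinesins are shown first because the choice of members did not use them and a short element recurs in them. RefSeq promoter windows on GRCm38.p6, of 250 bases before and 50 after a gene start, were matched by symbol to 47 of the 60 genes, of which 11 were mitotic kinesins and 36 other motors. Each window was searched on both strands for the CHR letters TTTGAA. At least 1 match lay in 10 of the 11 mitotic kinesin windows, in 4 of the 36 other motor genes (11.1%), in 14.6% of 9100 genes tested on the arrays and in 20.2% of all 27025 genes in the promoter table. In 8 of the mitotic kinesins a match began within 20 bases of the start. Among the other motors, Kif26b had a match 9 bases before it. The share of all genes with a match so placed was not counted. The stretches below run from 110 bases before to 30 bases after the start, in the direction of the gene, with CHR matches in capitals. Kif11, Kif22, Kif18b, Kif20b and Kif2c are among the mitotic kinesins with the largest differences in Mef2c-deficient cells, Kif18a is the mitotic kinesin without a match, and Kif3a is shown as a transport motor without one.
Kif11: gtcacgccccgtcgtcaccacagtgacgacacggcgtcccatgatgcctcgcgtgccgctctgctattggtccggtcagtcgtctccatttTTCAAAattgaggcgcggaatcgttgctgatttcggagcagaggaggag
Kif22: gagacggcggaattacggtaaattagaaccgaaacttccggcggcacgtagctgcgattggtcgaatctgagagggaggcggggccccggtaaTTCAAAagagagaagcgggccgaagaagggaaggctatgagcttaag
Kif18b: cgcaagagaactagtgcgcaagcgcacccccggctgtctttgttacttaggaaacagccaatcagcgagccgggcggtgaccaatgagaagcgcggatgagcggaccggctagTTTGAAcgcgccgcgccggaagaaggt
Kif20b: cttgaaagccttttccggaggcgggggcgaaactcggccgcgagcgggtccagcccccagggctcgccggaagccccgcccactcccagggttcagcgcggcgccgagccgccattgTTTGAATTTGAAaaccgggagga
Kif2c: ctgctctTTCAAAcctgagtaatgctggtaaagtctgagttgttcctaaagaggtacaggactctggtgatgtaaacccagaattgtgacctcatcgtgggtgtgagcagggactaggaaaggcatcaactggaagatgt
Kif18a: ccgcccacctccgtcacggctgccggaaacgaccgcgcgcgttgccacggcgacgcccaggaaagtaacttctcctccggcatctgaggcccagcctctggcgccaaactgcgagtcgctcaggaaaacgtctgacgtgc
Kif3a: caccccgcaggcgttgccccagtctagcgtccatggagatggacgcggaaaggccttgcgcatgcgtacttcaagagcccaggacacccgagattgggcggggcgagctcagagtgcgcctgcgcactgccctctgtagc

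These stretches lie at chr19:37376272-37376411 (Kif11, plus strand), chr7:127042391-127042530 (Kif22, minus strand), chr11:102925095-102925234 (Kif18b, minus strand), chr19:34922248-34922387 (Kif20b, plus strand), chr4:117178743-117178882 (Kif2c, minus strand), chr2:109280628-109280767 (Kif18a, plus strand) and chr11:53567259-53567398 (Kif3a, plus strand). In Kif11 and Kif22 the match began 19 and 17 bases before the start, in Kif18b 4 bases into the transcript, and in Kif2c 103 bases before the start. Kif20b held adjacent matches that began at bases 8 and 14 of the transcript. The promoter of Kif15 had a match 19 bases before the start, those of Kif23, Kifc1 and Kif4 at bases 3, 2 and 20 of the transcript, and that of Kif14 only 228 bases before it. The 4 other motor genes with a match were Kif1a, Kif26b, Dctn1 and Kifc5b, a close relative of Kifc1.

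Other motifs separated the classes less. CCAAT, the binding letters of the factor NF-Y, was found in 7 of 11 mitotic kinesins (63.6%), 15 of 36 other motors (41.7%) and 41.1% of all genes. The E2F letters TTTGGCGC or TTTCGCGC were found in 2 mitotic kinesins, Kif15 and Kif18a, in 0 other motors and in 0.929% of all genes. The MEF2 consensus was found in 0 of 47 motor gene windows and in 2.16% of all genes. No match of 1 motif overlapped a match of another in these windows. A match describes letters and is no evidence of binding, and a missing match says only that the letters are not in the window.

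Values are given on the log2 scale of the deposited numbers, whose base is not settled. If they are powers of e, every difference given here is 0.693 times the printed value, with the same sign and p. Median deposited values lay between 236 and 285 per array, and Pearson's r across genes was 0.868 to 0.943 among Mef2c-deficient and 0.957 to 0.986 among control arrays. The bacterial bioB transcripts, added before hybridisation as a control, were brighter in all 3 Mef2c-deficient arrays (log2 of 15.05 to 17.29, against 13.47 to 14.85). Of all genes tested, 62.3% had lower means in Mef2c-deficient cells, with a median difference of -0.36. All 12 measured pre-B-cell markers passed the filter, and 10 of them (83.3%) had lower means in Mef2c-deficient cells (median -0.77). Their summed deposited values ranged from 2203630 to 2736930 in controls and from 1453830 to 2330160 in Mef2c-deficient arrays. All 10 markers of plasmacytoid dendritic cells, which carry B220 too, had higher means, with array medians of -0.49, -0.40 and 0.99 in controls and 0.53, 0.95 and 3.37 in Mef2c-deficient arrays, and sums of 41821 to 133887 and 84734 to 1147730. Neutrophil markers had medians of -0.31, -1.27 and 1.29 against -0.02, -1.23 and 4.81, so that Mef2c-deficient replicate 3 stood apart. Monocyte and macrophage markers had 7 of 7 higher means, with medians of -0.10, -0.10 and -0.03 in controls and 0.21, 1.14 and 2.08 in Mef2c-deficient arrays. Mature B-cell markers had 8 of 9 higher means, with medians of -0.43, 0.05 and 0.0048 against -0.08, 1.22 and 0.28. Ms4a1 was higher without overlap at 1.56 (SE 0.45), whereas Fcer2a was at -1.59 (SE 0.87). Higher means were also seen in 6 of 8 T and NK cell and 4 of 5 erythroid markers, with Car2 at -1.48 (SE 0.64). Plasma cell markers had 3 of 6 higher means, beside 52.5% of all genes with 1 symbol. Among them Sdc1 (-2.36, SE 0.42) and Slamf7 (-2.15, SE 0.45) were lower without overlap. In the other 4 the groups overlapped. Xbp1 (0.78, SE 0.65), Jchain (0.46, SE 0.45) and the dim Tnfrsf17 (0.32) had higher means, and Prdm1 was at -0.18 (SE 0.40). The part of these cells in the motor gene values was not tested. Without Mef2c-deficient replicate 3 the mitotic median was -1.86 and that of the other motors -0.30.

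All 12 mitotic kinesins had lower means in Mef2c-deficient than in control pre-B cells (62.3% of genes tested did), by 0.61 to 2.84 on the log2 scale. Their median log2 difference was -1.78, beside -0.36 for the 11271 genes tested. The 48 other motors, 15 of them too dim to be tested, had a median of -0.59, beside 0.07 for all genes with 1 symbol. With limma, fitted across all genes tested, 0 of the 45 motor genes above the filter on dim probe sets had an adjusted p under 0.05, against 0.0177% of all genes tested, and the t-test named in the methods also gave 0. At an unadjusted p under 0.05, 8 of 12 mitotic kinesins (66.7%) and 10 of 33 other motors that passed the filter (30.3%) were lower, against 20.9% of all genes tested. With limma array weights, which give noisy arrays less weight, 13 motor genes passed adjustment, of which 9 were mitotic kinesins, as did 10.2% of all genes. The members were chosen with results of these arrays known, so the counts describe them and are no independent evidence. In sorted cells measured in bulk, fewer dividing cells and less RNA per cell cannot be told apart.

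**Figure D1:**
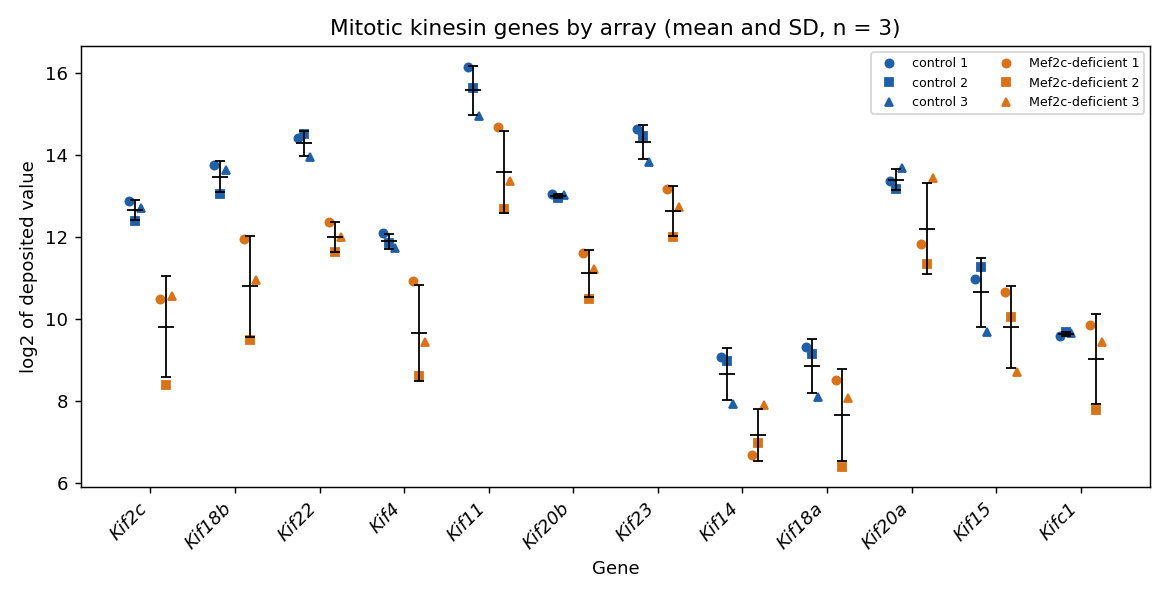
The 12 mitotic kinesin genes (horizontal axis) and their log2 deposited values (vertical axis) with controls in blue and Mef2c-deficient cells in orange, 3 arrays each, replicates told apart by symbol and black bars giving mean and SD. The groups did not overlap in the 8 genes on the left, from Kif2c to Kif14, and overlapped in Kif18a, Kif20a, Kif15 and Kifc1.

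The largest differences belonged to kinesins that act on microtubule ends and chromosome arms. Kif2c, which disassembles microtubules at kinetochores and so helps to correct faulty attachments, had log2 values of 12.89, 12.39 and 12.70 in the control arrays and 10.50, 8.39 and 10.57 in the Mef2c-deficient arrays. Every Mef2c-deficient array lay below every control, and replicate 2 was the lowest. The log2 difference was -2.84 (SE 0.59), a 7.15-fold difference in deposited values, with a limma adjusted p of 0.0933. Kif18b, which trims the astral microtubules, had values of 13.75, 13.04 and 13.62 against 11.94, 9.50 and 10.95. Again the groups were separate and Mef2c-deficient replicate 2 was lowest, with a difference of -2.67 (SE 0.60, limma adjusted p = 0.0941).

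The chromokinesins bind chromosome arms and push them towards the spindle equator. Kif22 had log2 values of 14.40, 14.50 and 13.94 in controls and 12.38, 11.64 and 12.004 in Mef2c-deficient cells. This was the tightest of the large differences, at -2.27 (SE 0.32), and had the smallest limma adjusted p among motor genes, 0.0745. Kif4, which also organises the central spindle, had values of 12.09, 11.85 and 11.74 against 10.93, 8.61 and 9.46, with a difference of -2.23 (SE 0.56, limma adjusted p = 0.106). Neither gene overlapped between groups. Kif22 and Kif2c each rest on 1 probe set whose name marks it as able to match other transcripts.

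Kif11, the motor that slides antiparallel spindle microtubules apart and without which poles do not separate, had log2 values of 16.13, 15.62 and 14.95 in controls and 14.68, 12.69 and 13.37 in Mef2c-deficient cells. Control replicate 3 lay just above Mef2c-deficient replicate 1, so the groups did not overlap, and the difference was -1.99 (SE 0.55, limma adjusted p = 0.115). Kif15, known as a motor that can stand in for Kif11, had values of 10.98, 11.28 and 9.69 against 10.66, 10.06 and 8.71. Here the groups overlapped because control replicate 3 was low, and the difference was -0.84 (SE 0.61, limma adjusted p = 0.355). Kifc1, a minus-end directed kinesin that focuses spindle poles, had values of 9.59, 9.68 and 9.67 against 9.86, 7.79 and 9.45. Only Mef2c-deficient replicate 2 stood well below the controls. The mean difference of -0.61 (SE 0.53, limma adjusted p = 0.427) became 0.01 without that array. Its probe set can match several transcripts, and Kifc5b, read from another probe set, had a difference of -0.54 (SE 0.27).

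The kinesins of cytokinesis gave a mixed picture. Kif20b had nearly equal control values of 13.04, 12.95 and 13.02, and Mef2c-deficient values of 11.60, 10.50 and 11.23. The groups were separate, with a difference of -1.89 (SE 0.35, limma adjusted p = 0.0817). Kif23, which forms the centralspindlin complex of the midzone with Racgap1, had values of 14.62, 14.46 and 13.83 against 13.18, 11.99 and 12.72, a difference of -1.67 (SE 0.40, limma adjusted p = 0.0975). Kif14, which works with citron kinase at the midbody, had values of 9.09, 8.98 and 7.93 against 6.69, 6.98 and 7.90. The replicate 3 arrays of the groups nearly met, and the difference was -1.48 (SE 0.45, limma adjusted p = 0.129). Kif14 was also the only mitotic kinesin whose Mef2c-deficient mean, 7.19, lay below the filter, so it was tested only because its control values were higher. It is among the 8 mitotic kinesins counted as lower and as not overlapping.

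Kif20a, which carries the chromosomal passenger complex to the midzone, had values of 13.35, 13.16 and 13.68 in controls and 11.83, 11.33 and 13.45 in Mef2c-deficient cells. Mef2c-deficient replicate 3 sat among the controls, and the difference was -1.19 (SE 0.54, limma adjusted p = 0.206). Without that array it was -1.81, with a limma adjusted p of 0.0486. Kif22 then had a limma adjusted p of 0.0453, and 1.41% of all genes passed. Kif18a, which dampens the oscillation of chromosomes at the metaphase plate, had values of 9.31, 9.16 and 8.11 against 8.52, 6.41 and 8.08. Its groups overlapped, and the difference was -1.19 (SE 0.60, limma adjusted p = 0.232).

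Among the mitotic kinesins the groups did not overlap in 8 of 12 genes, or 66.7%, all lower in Mef2c-deficient cells, against 27.1% of the genes tested. Measured from the control mean of each gene, the 12 genes had medians of -1.26, -2.48 and -1.86 in the 3 Mef2c-deficient arrays and of 0.25, 0.04 and -0.25 in the controls. Replicate 2 was thus the lowest Mef2c-deficient array for the list, and it was the lowest of the 3 for 10 of the 12 genes. Between arrays of the same replicate number the median difference was -1.45, -2.61 and -1.35, and 11, 12 and 12 genes were lower. Kifc1 was the exception in the first pair.

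Differences varied with signal level, since dim genes more often had higher and bright genes lower means in Mef2c-deficient arrays. The 12 mitotic kinesins had mean log2 values between 7.93 and 14.58. In that range the median log2 difference was -0.45 for all 9035 genes and -0.70 for the 29 other motors, and 3.09% of the genes lay below the mitotic median of -1.78. In bin 5 of 10 equal bins of level, where all genes had a median of 0.30, Kif14 and Kif18a had differences of -1.48 and -1.19.

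**Figure D2:**
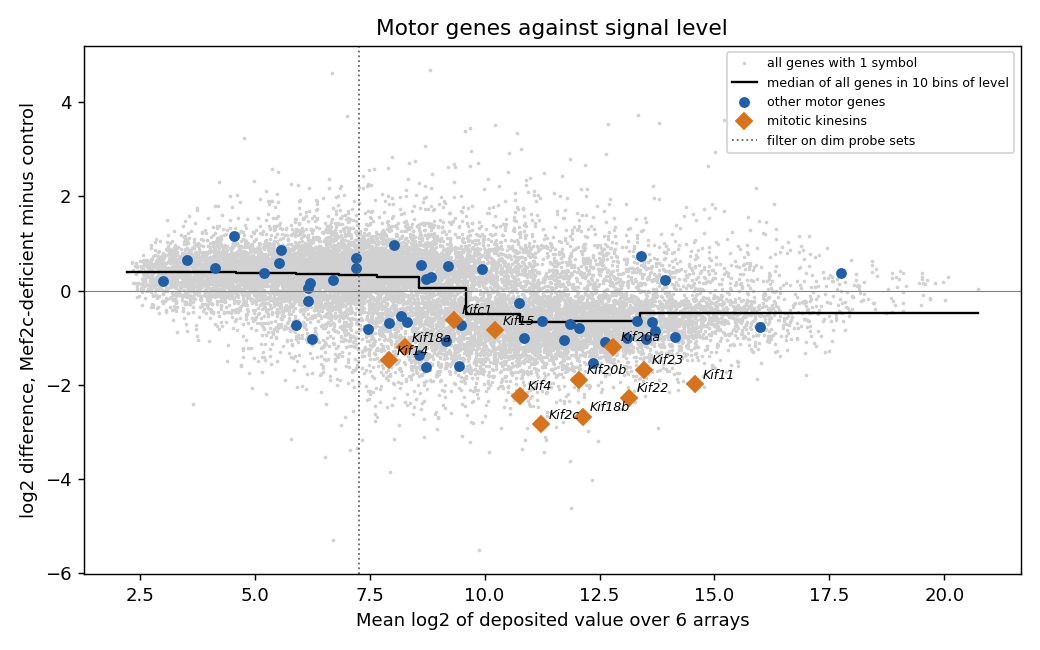
Log2 difference between Mef2c-deficient and control means (vertical axis) against the mean log2 of the deposited value over 6 arrays (horizontal axis), for all genes with 1 symbol (grey), the 48 other motor genes (blue) and the 12 mitotic kinesins (orange). The black line is the median of all genes in 10 equal bins of level and the dotted line the filter at 7.26. The mitotic kinesins lie between -0.61 and -2.84, all below the line.

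Of the 48 other motor genes, 27 had lower and 21 higher means in Mef2c-deficient cells, beside 47.5% and 52.5% of all genes with 1 symbol. Their groups did not overlap in 13 genes in the lower direction (27.1%) and in 8 in the higher direction (16.7%), beside 18.7% and 15.8% of all genes with 1 symbol. Their median of -0.59 stood beside 0.07 for all genes with 1 symbol. The 33 genes that passed the filter had 24 lower and 9 higher means (62.3% and 37.7% of all genes tested), whereas 12 of the 15 dim genes had higher means (80.0%), beside 80.0% of all dim genes. At an unadjusted p under 0.05, 10 were lower and 2 higher (6.06% of those tested, against 5.32% of all genes). The 2 higher genes were Kif1a and Kif21b, the latter named after its value was seen. Centring each array on the median of the genes tested made the counts 2 lower and 5 higher of 33, and centring on the kept probe sets made them 3 and 4. Of all genes tested, 6.48% and 10.7% were lower at that p in these runs, against 20.9% in the reported fit.

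Kinesin-2 motors differed among themselves. Kif3a, which pairs with Kif3b in the motor that also builds cilia, had log2 values of 10.23, 9.90 and 10.64 in controls and 8.82, 8.90 and 8.23 in Mef2c-deficient cells. All Mef2c-deficient arrays lay well below the controls, and the difference was -1.60 (SE 0.33, limma adjusted p = 0.0933). Kif3b had values of 9.05, 8.71 and 10.04 against 7.39, 8.74 and 7.55. Mef2c-deficient replicate 2 overlapped the controls here, and the difference was -1.37 (SE 0.49, limma adjusted p = 0.152). Kif3c, a further kinesin-2 chain, was at -1.07 (SE 0.50), while Kif17, the homodimeric kinesin-2, was at 0.30 (SE 0.34).

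Kinesin-3 motors, which carry vesicles and organelles, went both ways. Kif13b had values of 12.85, 13.18 and 13.46 against 11.55, 12.82 and 11.84, and Mef2c-deficient replicate 2 came close to control replicate 1 without overlap. Its difference was -1.09 (SE 0.40, limma adjusted p = 0.154). Kif1b had values of 7.54, 7.89 and 8.21 against 6.89, 7.38 and 6.93, a difference of -0.81 (SE 0.31, limma adjusted p = 0.164). Its Mef2c-deficient mean, 7.07, lay below the filter of 7.26, so Kif1b was tested only because its control values were higher. It is among the 10 other motors counted as lower. Kif1a, best known as the carrier of synaptic vesicle precursors in neurons, was the motor gene with the smallest unadjusted p in the higher direction. Its values were 7.82, 7.50 and 7.34 in controls and 8.68, 8.40 and 8.49 in Mef2c-deficient cells, without overlap, and the difference was 0.97 (SE 0.28, limma adjusted p = 0.118). It lay in bin 5 of level, where all genes had a median of 0.30. Kif1c, another kinesin-3, was higher without overlap but at 0.55 (SE 0.31, limma adjusted p = 0.263).

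Kinesin-1, the conventional cargo motor, is a tetramer of heavy and light chains. Its widely expressed heavy chain Kif5b had log2 values of 12.48, 12.29 and 11.99 in controls and 11.47, 11.36 and 10.82 in Mef2c-deficient cells. All 3 Mef2c-deficient arrays were lower, with a difference of -1.04 (SE 0.31, limma adjusted p = 0.124). The neuronal heavy chains Kif5a and Kif5c were dim and had means that were 0.49 and 0.70 higher. The light chain Klc1 had values of 9.04, 8.92 and 10.68 against 8.93, 7.39 and 7.46, so that control replicate 3 was high and the groups just overlapped, with a difference of -1.62 (SE 0.61, limma adjusted p = 0.159). Klc4 and Klc3 spread widely among Mef2c-deficient arrays, with SDs of 1.18 and 1.67, and both were lowest in replicate 3.

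The remaining kinesins included depolymerases, which shorten microtubules. Kif2a, a relative of Kif2c that trims microtubules in dividing and non-dividing cells, had values of 13.35, 13.19 and 12.84 against 11.57, 12.12 and 11.11. Its groups were clearly separate, with a difference of -1.53 (SE 0.35, limma adjusted p = 0.095). Kif24, which acts at centrioles and cilia, had tight values of 9.78, 9.84 and 9.96 against 9.00, 9.28 and 9.09, a difference of -0.74 (SE 0.26, limma adjusted p = 0.149). Kif21b, which slows microtubule growth and is expressed in lymphocytes, had values of 13.25, 12.74 and 13.14 against 14.03, 13.90 and 13.39 and was higher without overlap, at 0.73 (SE 0.31, limma adjusted p = 0.186). The 8 dim genes of this group, among them the depolymerase Kif2b with a mean that was 1.15 higher, had 7 higher means.

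**Figure D3:**
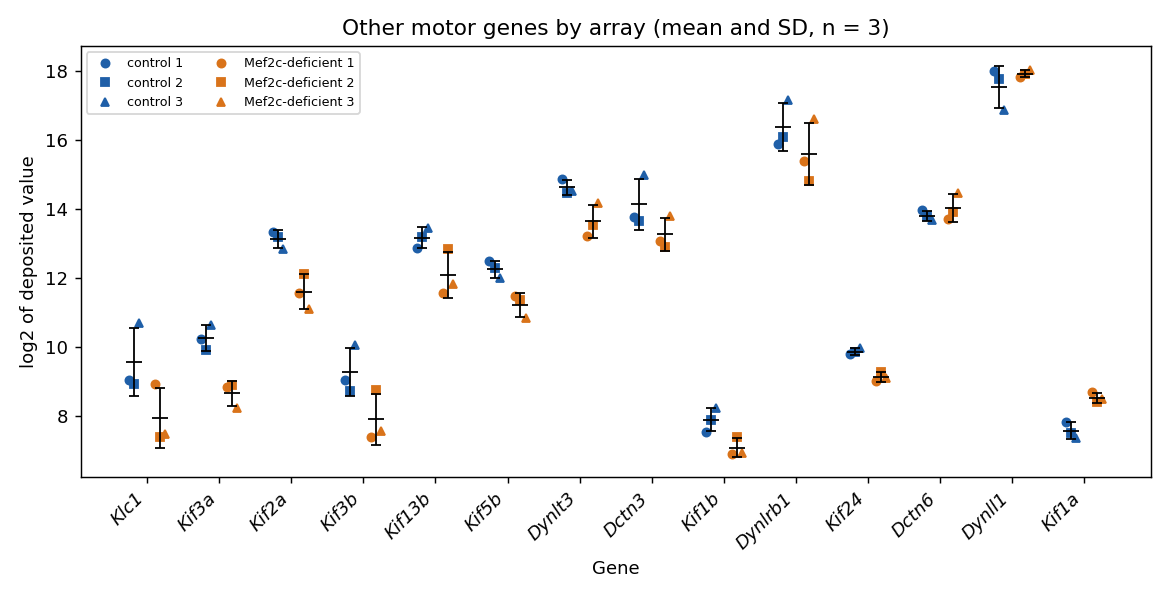
The 10 other motor genes with the smallest unadjusted p and the 5 brightest ones, Dynlt3 being both (horizontal axis), and their log2 deposited values (vertical axis), controls in blue, Mef2c-deficient cells in orange, bars giving mean and SD. Kif3a, Kif2a, Kif5b, Dynlt3, Kif24, Kif1b and Kif13b were lower without overlap, and Kif1a was higher without overlap.

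The dynein motor had a median log2 difference of -0.44 over 6 heavy, intermediate and light intermediate chains, with means in both directions. The heavy chain Dync1h1, which holds the ATPase, had values of 9.71, 9.86 and 9.57 in controls and 9.66, 10.04 and 10.82 in Mef2c-deficient cells. The groups overlapped, with a difference of 0.46 (SE 0.36, limma adjusted p = 0.387). The intermediate chain Dync1i2 and the light intermediate chain Dync1li2, which link the heavy chain to cargo, were at -0.99 (SE 0.46) and -1.02 (SE 0.43), lower without overlap. Dync2h1, the heavy chain of the ciliary dynein, was at -0.67 (SE 0.43). The neuronal intermediate chain Dync1i1 was dim in all arrays, at 2.69 to 3.47.

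Light chains of dynein bind cargo adaptors and stabilise the intermediate chains. Dynlt3 had values of 14.88, 14.46 and 14.53 against 13.23, 13.54 and 14.17, separate groups with a difference of -0.98 (SE 0.34, limma adjusted p = 0.144). Dynlrb1 had values of 15.89, 16.09 and 17.18 against 15.38, 14.83 and 16.60, in which replicate 3 was the highest array of both groups and the groups overlapped. Its difference was -0.78 (SE 0.54). Dynll1, a light chain that also serves as a hub for many unrelated proteins, had values of 18.02, 17.78 and 16.86 against 17.84, 17.91 and 18.04, a difference of 0.38 (SE 0.36). It was the 1 member with more than 1 probe set, and the dimmer probe set differed by -1.04, in the opposite direction. No direction is given for this gene.

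Dynactin, the cofactor that makes dynein processive, had 5 measured subunits, of which 4 had lower means and 0 had an unadjusted p under 0.05. The groups overlapped in all 5. Dctn1, which binds microtubules and dynein directly, was at -1.01 (SE 0.52), with Mef2c-deficient replicate 3 lowest at 9.18. Dctn3 had values of 13.76, 13.66 and 14.98 against 13.08, 12.91 and 13.81, a difference of -0.87 (SE 0.45). Dctn6, of the pointed-end complex, had values of 13.96, 13.79 and 13.67 against 13.71, 13.91 and 14.47, a difference of 0.22 (SE 0.31). Its sign turned in some alternatives, so no direction is given.

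Set against each other array by array, the median of the mitotic kinesins lay 1.70 lower relative to that of the other motors in Mef2c-deficient than in control arrays. In the same 3 Mef2c-deficient arrays the other motors had medians of -0.18, -0.13 and -0.28, well above the -1.26, -2.48 and -1.86 of the mitotic kinesins. These are medians taken within single arrays. The median over genes of the group difference is another measure, and its values cannot be set against that 1.70. On it, the mitotic kinesins were at -1.78 and all 48 other motors, 15 of them dim, at -0.59. The 29 other motors within the signal range of the mitotic kinesins were at -0.70. The comparison between the classes is one of genes within the same arrays, and members are not replicates, so no p is given. The array-by-array difference was smallest in size, at -1.18, on the base of e, and kept its sign in every alternative run. The count of other motors lower at an unadjusted p under 0.05 varied with single arrays. It was 10 of 33 in the reported fit, 4 without control replicate 3, 6 without control replicate 1 and 6 without Mef2c-deficient replicate 1. The share of all genes tested that was lower at that p fell too, from 20.9% to 12.6%, 12.4% and 18%.

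Partners of the motors were read beside all genes tested, of which 62.3% had lower means and 20.9% were lower with an unadjusted p under 0.05, with a median of -0.36. Of 18 genes for spindle proteins that work with mitotic kinesins, 17 (94.4%) had an unadjusted p under 0.05, all in the lower direction, 0 passed adjustment, and the median was -1.99. Racgap1, the partner of Kif23, was at -2.38 (SE 0.39), Zwilch, of the complex that recruits dynein to kinetochores, at -3.21 (SE 0.40), and Incenp, the scaffold carried by Kif20a, at -1.54 (SE 0.27). The probe set of Incenp can match several transcripts. TTTGAA lay in 10 of the 14 promoter windows found for this list (71.4%). Dynein adaptors and regulators had 12 of 16 lower means and a median of -0.54, and 5 of the 15 tested (33.3%) were lower with an unadjusted p under 0.05. Those with the smallest p were the adaptors Bicd2 (-1.22, SE 0.33), Hook1 (-1.30, SE 0.42) and Hook3 (-1.04, SE 0.35). Kinesin cargo adaptors had 8 of 11 lower means and a median of -0.46, and 4 of the 10 tested (40%) were lower with an unadjusted p under 0.05. Kidins220, which is carried by kinesin-1, was at -0.97 (SE 0.35), Fez2 at -0.79 (SE 0.30) and the mitochondrial adaptor Trak2 at -0.83 (SE 0.33). Axonemal dyneins, the motors of cilia and flagella, had 5 lower and 9 higher means and a median of 0.41. Of the 8 tested, 3 (37.5%) were lower with an unadjusted p under 0.05, namely Dnah1 at -1.29 (SE 0.42), Dnah8 at -1.44 (SE 0.56) and Dnah11 at -0.93 (SE 0.39). Those 8 had 4 lower and 4 higher means, whereas 5 of the 6 dim ones had higher means (83.3%), beside 80.0% of all dim genes. The groups did not overlap in 1 lower (7.14%) and 4 higher genes (28.6%), beside 18.7% and 15.8% of all genes with 1 symbol. The largest of the 4 was the dim Dnah7a at 1.20.

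**Figure D4:**
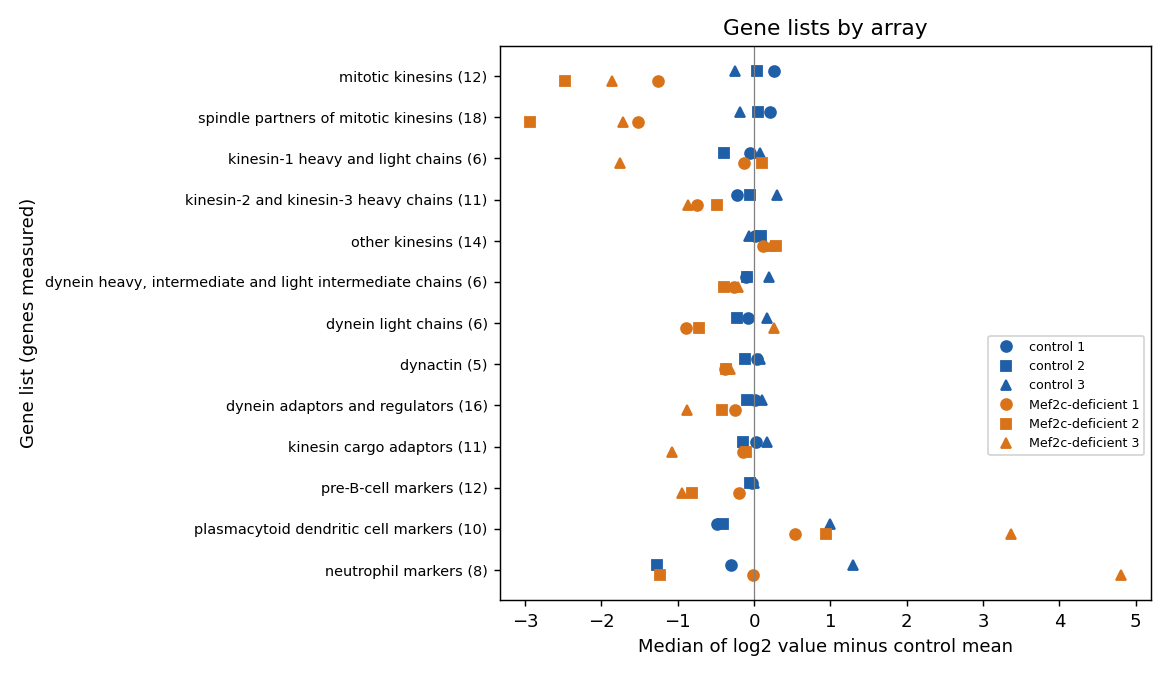
Gene lists (vertical axis, with the number measured) and, for each array, the median distance of their genes from the control mean in log2 units (horizontal axis), controls in blue, Mef2c-deficient cells in orange, replicates told apart by symbol. Mitotic kinesins lay at -1.26, -2.48 and -1.86 and their spindle partners at -1.52, -2.94 and -1.72 in Mef2c-deficient arrays, while plasmacytoid dendritic cell markers reached 3.37 and neutrophil markers 4.81 in replicate 3.

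The study's own criteria were a 2-fold change or more with p not above 0.05 before adjustment. By these, 8 mitotic kinesins and 7 other motors were lower and 0 higher (14.7% and 2.64% of all genes tested). On the base of e the lower counts were 8 and 3, beside 657 of the 11271 genes tested.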

How the data were processed

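RNA of sorted pre-B cells had been hybridised to Affymetrix mouse expression arrays, 1 per sample. Per the methods, the authors background-corrected and quantile-normalised the data by RMA and used limma (versions not given in the sources used here). They also removed probe sets by MAS5 detection calls, though whether that rule shaped the table is not stated. Intensity was deposited on a linear, not a log, scale. The table has 23913 probe sets, of which 17689 had 1 symbol. Its values reach 2144602, and 2865 of them exceed 65535, the most a scanner reading can hold, so the base of the exponent is not settled. Values of Mef2c itself were not analysed here.

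From these, log2 values were computed without a pseudocount, and the probe set of highest mean was kept for each gene. For 8 of the 60 motor genes, 3 of them mitotic kinesins, its name marks it as able to match other transcripts. Dynlrb1, Dctn1 and Kif17 are among these. Genes at or below the 40th percentile of mean log2 (7.26) were left out, and 11271 were tested with limma 3.58.1 (R 4.3.3), group only, with Benjamini-Hochberg adjustment over all of them. The threshold was 0.05. The test was also run on simulated data. The simulated arrays had the spread of the controls and no shared deviations, so the check does not cover the wider spread of the Mef2c-deficient arrays. Array numbers limit precision, with 3 per group. Same-numbered arrays shared deviations from their group means (correlations of 0.348, 0.226 and 0.373, against -0.309 to 0.129 for other pairs), so numbers were taken to pair arrays on the evidence of the data alone, and a fit with the replicate block was an alternative. Alternatives also covered filter, scaling, probe set choice, pseudocount, variance model and single arrays.

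Named genes were all mitotic kinesins, the 10 other motors with the smallest p, the 5 brightest, and up to 3 per partner list. Other motor genes were named after their values were seen, to describe their families. Some single cell type markers, Sdc1 among them, were also named after their values were seen. Members and lists were chosen with earlier results of these data known. Promoters came from RefSeq (GRCm38.p6), searched on both strands.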

Additional observations from a re-analysis of the deposited data

How the results depend on the processing

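The count of motor genes past the adjusted threshold was 0 in the reported fit, 13 with array weights, 0 to 2 when 1 array was left out (2 without Mef2c-deficient replicate 3, Kif20a and Kif22) and 0 in the other alternatives. With the replicate block, which pairs arrays of the same number, 0 motor genes passed, so pairing changed no adjusted call. At an unadjusted p under 0.05, 10 mitotic kinesins and 13 other motors were then lower, as were 23.1% of all genes tested. The count of mitotic kinesins lower at that p stayed between 6 and 10, and their median between -2.07 and -1.24. Of all genes tested, 6.48% were lower at that p with arrays centred on the genes tested and 10.7% centred on the kept probe sets. With 1 array left out the share was 12.4% to 23.7%. The count of other motors was 2 and 3 with those centrings, and 4 to 10 with 1 array left out. Their median was -0.78 with the filter at the 60th percentile, -0.13 and -0.30 with those centrings, -0.17 with cyclic loess, -0.23 with quantile normalisation, -0.27 without probe sets that can match several transcripts, -0.41 on the base of e, -0.37 without both arrays numbered 3, and -0.57 to -0.30 with 1 array left out. Scaling moved the median of the genes tested from -0.36 to -0.10 (quantile), -0.04 (cyclic loess), -0.07 (kept probe sets) and 0.10 (genes tested), and the mitotic median relative to it lay between -1.44 and -1.39 in these. Signs turned for Kifc1 without Mef2c-deficient replicate 2 (0.0096, range -1.02 to 0.0096 with 1 array left out), for Dynll1 with array weights (-0.0088), with the mean of its probe sets (-0.33) and without both arrays numbered 3 (-0.024), and for Dctn6 with array weights (-0.012), without Mef2c-deficient replicate 3 (-0.00019, range -0.00019 to 0.38 with 1 array left out) and without both arrays numbered 3 (-0.069). The cause was not tested. Centring on the genes tested and leaving out both arrays numbered 3 were chosen after seeing the data.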
